A study of Mus musculus with 12 samples.

Results

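Compact regions of histone H4 acetylation (H4ac) that every H4ac library of the series listed as a peak are described here. Merging every overlapping or touching peak across the 6 lists gave 31891 regions, and the members were chosen by 2 measured values: a listing in all 6 libraries and a union width under 1000 bp. This left 1605 regions, 5.03% of all regions and 51.7% of the 3107 regions listed by all 6 libraries. Because listing and width chose the regions, signal strength, width and every comparison with wider regions are given as a description, with no test. The remaining 1502 shared regions, 1000 bp or wider, are called broad and serve as the comparison.

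The cells were C2C12, an established mouse myoblast line, transduced with lentivirus carrying MLX-WT or MLX-DN, and the peak names of all 6 lists carry a tag for the presence of glucose. DN is not spelled out in the labels, whose description field has MLX down for this group. Each group had 3 H4ac libraries and 3 input libraries, and only the H4ac libraries come with a peak list. The labels do not tell whether replicates came from separate cultures, and the p-values therefore cover only the spread among these libraries, which may be technical. Both groups rest on 1 cell line, and myoblast marker genes were not checked because gene positions on this genome build (mm9) were not used here.

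Acetylation of lysines in the tail of histone H4 loosens its hold on DNA and offers a docking site to bromodomain proteins, and the mark is known from active promoters and enhancers. MLX binds DNA as the partner of MondoA or ChREBP, proteins whose activity responds to glucose. Acetylated nucleosomes commonly flank the nucleosome-poor site where transcription factors bind, so the base at which most reads stack, the summit of a peak, tells where along a region the mark is densest.

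The compact regions took up a similar number of peaks but a different share of each list. In this and all later triplets of values the order is replicate 1, 2 and 3. The MLX-DN lists held 15201, 24811 and 16898 peaks, of which 10.7%, 6.58% and 9.65% lay in compact regions. The MLX-WT lists held 5385, 13652 and 9422 peaks, of which 29.97%, 11.9% and 17.2% did. The background ChIP depth recovered from the lists lay between 3.30 and 3.90 reads over a base in the 6 libraries. Most compact regions were simple in structure: 1505 of 1605 (93.8%) held exactly 1 peak of every library, against 526 of 1502 broad regions (35.0%). The width limit favours this count, since no region was narrower than 250 bp.

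The union of the 6 peaks was 728 bp wide at the median compact region (quartiles 615 and 848 bp). All 6 peaks had a median of 291 bp in common, 43.5% of the union. No base was common to all 6 lists at 34 regions. The narrowest was chr6:113026905-113027284 (mm9, counted from 1) with 380 bp, followed by chr11:84683863-84684246 with 384 bp and chr11:86171404-86171788 with 385 bp. At the second of these the peaks were 353, 367 and 332 bp wide in MLX-DN against 300, 362 and 284 bp in MLX-WT, and the groups overlapped. Just inside the width limit stood chr19:5490526-5491524 with 999 bp, and chr8:90885178-90886175 and chr10:128360300-128361297 with 998 bp each. Just outside it were chr4:126698521-126699520 with 1000 bp, and chr12:52929645-52930645 and chr17:24832630-24833630 with 1001 bp each. Peaks at the 999 bp region were 438 to 852 bp wide, and those at the 1000 bp region 849 to 982 bp. All 6 peaks had 388 bp in common at the former and 805 bp at the latter.

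Peaks within the compact regions were on average wider in MLX-DN, with overlap between the groups. Their median width was 519, 628 and 516 bp in MLX-DN against 388, 539 and 448 bp in MLX-WT. MLX-WT replicate 2 thus lay above 2 of the MLX-DN libraries. The means were 554 ± 63.8 bp in MLX-DN against 458 ± 76.0 bp in MLX-WT (SD, n = 3), a difference of 96 bp that was not tested because the rule uses width. Leaving out 1 library gave differences from 67.8 bp (without MLX-DN replicate 2) to 139 bp (without MLX-WT replicate 2), and the difference was 46.3 bp over the 787 regions of which each library's peaks covered at least 50%. MLX-DN replicate 2, the longest list, gave the widest peak at 754 regions, and MLX-WT replicate 1, the shortest list, the narrowest peak at 768. Peaks under 300 bp, close to the shortest possible, made up 4.24%, 1.12% and 5.05% of the regions in MLX-DN against 21.9%, 5.23% and 12.3% in MLX-WT.

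The lists also ended at different significance. The smallest −log10 p of a list was 3.74, 3.51 and 3.69 in MLX-DN against 4.22, 3.79 and 3.97 in MLX-WT, so every MLX-DN list went down to a lower significance than every MLX-WT list. The part of this in the width difference was not tested. Between regions, the width varied with rank in the list: the Spearman correlation of peak width with −log10 q over the 1605 regions ranged from 0.260 in MLX-DN replicate 2 to 0.384 in MLX-WT replicate 3. Width and significance come from the same reads and are a description only.

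**Figure D1:**
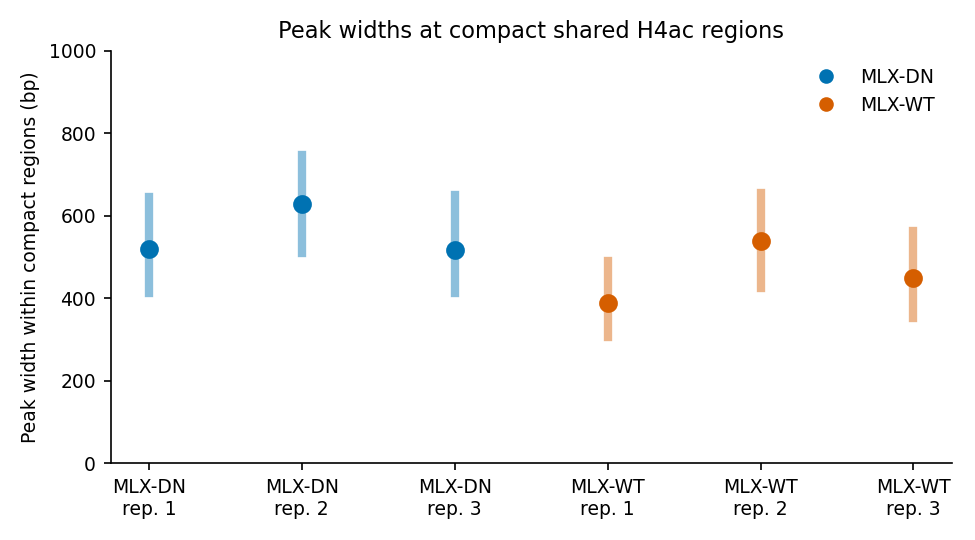
Peak width within the 1605 compact regions in each of the 6 libraries; points are medians and bars span the quartiles over regions, with widths in bp. The medians run from 388 bp in MLX-WT replicate 1 to 628 bp in MLX-DN replicate 2, and MLX-WT replicate 2 lies above MLX-DN replicates 1 and 3.

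Single regions whose widths separated the groups were mostly wider in MLX-DN. The differences in share between compact and other regions were not tested. At 274 compact regions (17.1%) every MLX-DN peak was wider than every MLX-WT peak, against a background of 22.9% over all 3107 shared regions and 29.1% of broad ones. The reverse was found at 16 compact regions (0.997%), with a background of 0.676%. The largest difference was at chr10:90620195-90621184, with widths of 930, 988 and 706 bp in MLX-DN against 305, 360 and 268 bp in MLX-WT. At chr15:77717578-77718564 the peaks were 896, 987 and 838 bp wide in MLX-DN against 440, 375 and 252 bp in MLX-WT. The third was chr13:33021218-33022151, at 884, 929 and 821 bp against 617, 306 and 252 bp. In each of these 3 the narrowest MLX-DN peak exceeded the widest MLX-WT peak by over 200 bp.

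Regions wider in MLX-WT differed by less. The largest difference was at chr2:173900395-173901218, where widths were 351, 560 and 299 bp in MLX-DN against 687, 571 and 741 bp in MLX-WT. It was followed by chr16:94511275-94512047, at 418, 292 and 484 bp against 617, 493 and 688 bp, and chr4:47366098-47366788, at 405, 290 and 450 bp against 516, 624 and 597 bp. The nearest widths of the groups were 560 and 571 bp at the first and 484 and 493 bp at the second, so the separation was narrow at both.

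Summits of different libraries lay about as near each other within a group as between the groups. The width limit caps these distances. Over the compact regions the 6 summits spanned a median of 133 bp (quartiles 91 and 209 bp), and they lay within 100 bp of each other at 499 regions (31.1%) and within 150 bp at 931 (58.0%). The distance of a library's summit from the median of the other 5 was 38, 39 and 38 bp at the median region in MLX-DN against 43, 37 and 41 bp in MLX-WT. The means were 38.3 ± 0.577 bp and 40.3 ± 3.06 bp (SD, n = 3), and the difference of −2 bp was within the spread between libraries (exact permutation test, two-sided, p = 0.40, where 3 libraries against 3 cannot go below 0.10). The summit farthest from the others came from MLX-WT replicate 1 at 19.3% of the regions and from MLX-WT replicate 3 at 18.6%, and from each other library at 14.9% to 16.2%.

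Median summit distances of pairs within a group and of pairs between groups lay in nearly the same range. The median distance was 47 to 48 bp for the 3 pairs within MLX-DN, 49 to 54 bp for the 3 pairs within MLX-WT and 46 to 52 bp for the 9 pairs between groups. The mean within groups exceeded that between groups by 0.444 bp (exact permutation test, one-sided towards shorter distances within groups, p = 0.90, smallest possible 0.10). The sign of this small difference changed with the processing, and without MLX-WT replicate 1 it was −1.58 bp, at the smallest p the exact test allows (0.10). Among broad regions the pairs within MLX-DN were closest, with 68 to 69 bp against 79 to 91 bp within MLX-WT and 72 to 90 bp between groups, and the mean within minus between was −4.61 bp (the same exact test, added after seeing the data, p = 0.10).

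Regions whose summits separated the groups by coordinate had shares near the background. Every MLX-DN summit had a larger coordinate than every MLX-WT summit at 83 compact regions (5.17%), with a background of 5.76% of all shared regions. The reverse held at 94 (5.86%), with a background of 5.57%. The median summit stood near the centre, at 49.4% of the region's width from its left edge (quartiles 38.9% and 60.6%). Distances between summits fell off steadily: over the pairs between groups, 27.8% of distances were under 25 bp, 15.3% were 50 to 75 bp, 7.01% were 100 to 125 bp and 2.90% were 150 to 175 bp, and no bin of 25 bp up to 200 bp held more than the one before it.

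**Figure D2:**
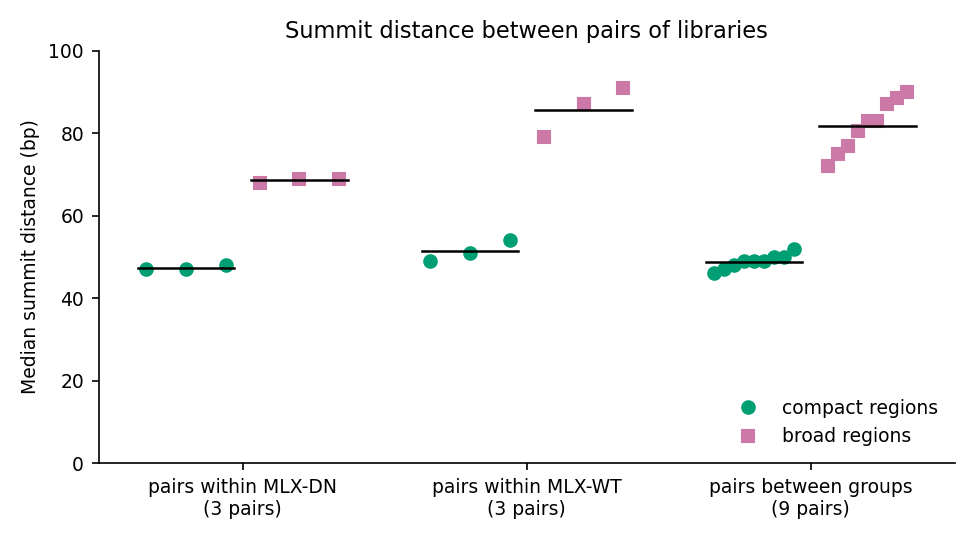
Median distance in bp between the summits of 2 libraries, for the 15 pairs sorted by whether both are MLX-DN, both MLX-WT or 1 of each; circles are compact and squares broad shared regions, and lines are means over pairs. Compact regions lie between 46 and 54 bp in all pairs, while broad regions lie between 68 and 91 bp.

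The tightest summit was at chr8:19784721-19785153, where all 6 libraries had it within 1 bp, 72 to 73 bp from the left edge of a 433 bp region. This region had the highest level of control background of all compact regions, 17.2 times the lowest level of its lists on average, and folds of only 1.85 to 2.58 over that background. It held 150, 155 and 151 ChIP reads at the summit in MLX-DN against 116, 138 and 121 in MLX-WT. The next tightest were chr2:90687478-90687897 with a range of 24 bp, chr19:12870214-12870678 with 26 bp, chr15:96540370-96540962 with 28 bp and chr11:55241915-55242669 with 29 bp. At chr19:12870214-12870678 the summits stood 222, 219 and 226 bp from the left edge in MLX-DN against 212, 234 and 238 bp in MLX-WT. At chr11:55241915-55242669 they stood at 332, 331 and 303 bp and at 331, 319 and 311 bp, although the peaks around them were 250, 755 and 562 bp and 517, 555 and 341 bp wide. At the latter region the summits thus spanned 29 bp while the peak width ran from 250 to 755 bp.

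The widest scatter, among regions with 1 peak in every library, was 619 bp at chr19:47965396-47966323. The summits there stood 462, 404 and 738 bp from the left edge in MLX-DN against 200, 480 and 819 bp in MLX-WT, no base was common to all 6 peaks, and no library had more than 36 reads at its summit. The range was 596 bp at chr18:35459719-35460667, 569 bp at chr4:15192915-15193889, 551 bp at chr1:97210179-97211132 and 547 bp at chr15:77721270-77722183. At chr4:15192915-15193889 and chr1:97210179-97211132 a single library stood apart, with MLX-WT replicate 3 at 716 and 760 bp and the other 5 libraries at 147 to 397 bp and 209 to 384 bp.

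Stronger regions had tighter summits. The compact regions were divided into 4 equal classes by the lowest within-list percentile of −log10 q that a region reached in any library, where 100 is the strongest peak of a list. These percentiles depend on list length, and so do the classes. The lowest 25% of a list held 72, 26 and 81 compact regions in MLX-DN against 294, 64 and 159 in MLX-WT. The weakest class had a median summit range of 175 bp, and the following classes 145, 132 and 100 bp. The part common to all 6 peaks grew in the same order, from 232 to 266, 305 and 374 bp, while the union width stayed between 711 and 748 bp. Over the 1605 regions the Spearman correlation of summit range with lowest percentile was −0.35, and with union width 0.38. In 4 classes by union width the narrowest had a median summit range of 103 bp and the widest 180 bp. The regions share the 6 libraries, and these values only describe them.

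Compared with broad regions, summits of compact regions scattered over fewer base pairs. A library's median distance from the other summits was 22.6 ± 4.50 bp shorter at compact than at broad regions (SD over 6 libraries), with values from −18 bp in MLX-DN replicate 2 to −31 bp in MLX-WT replicate 3. The width limit caps how far apart summits can lie, so this order was largely set by the rule. As a share of the union width the order turned around: the distance was 1.24 percentage points larger at compact regions, where the same width that the rule used is the divisor. The order between compact and broad regions thus depended on the unit, base pairs or share of the width.

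The median compact region stood in the upper part of every list, and somewhat lower than the median broad one. A listing in all 6 libraries favours strong peaks, so the rule itself raises these ranks. Their median percentile was 81.3, 88.1 and 81.4 in MLX-DN against 62.3, 83.0 and 73.9 in MLX-WT. A list with fewer peaks leaves fewer weak peaks below a given region, so these percentiles are not compared between lists of different length. In each list compact regions ranked below broad ones, with differences of −6.19, −3.95 and −7.40 percentile points in MLX-DN against −3.97, −2.30 and −4.55 in MLX-WT. The mean difference was −4.72 ± 1.81 points (SD over 6 libraries). Rank rose with peak width within each list, as given above, so it is not independent of the width that parted compact from broad. With lists of equal length the difference was −1.50 points.

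**Figure D3:**
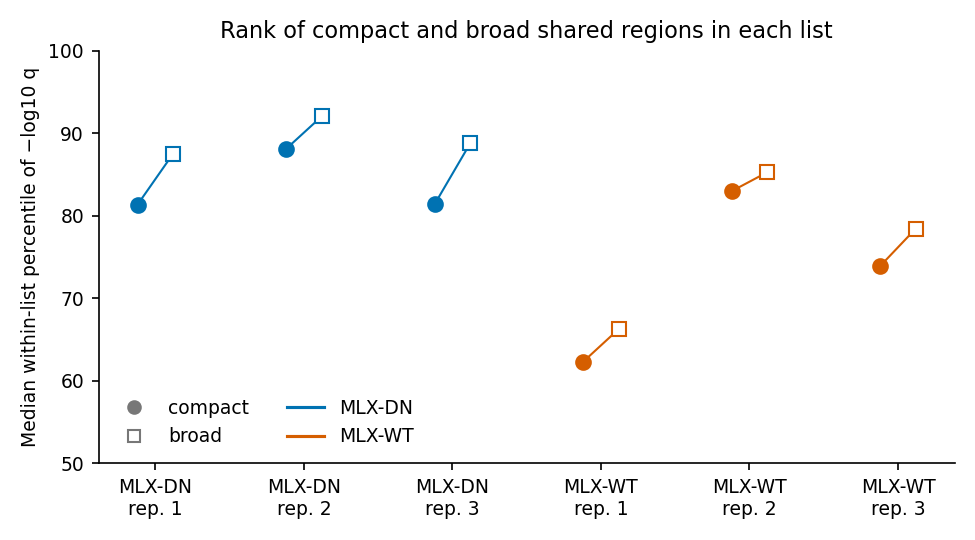
Median within-list percentile of −log10 q in each library for compact (filled circles) and broad (open squares) shared regions; 100 is the strongest peak of a list and the axis starts at 50. Compact regions stand below broad regions in all 6 lists, with differences of −7.40 to −2.30 points.

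Between libraries the order of the compact regions was only partly the same. The Spearman correlation of −log10 q over the 1605 regions was 0.513 to 0.532 for pairs within MLX-DN, 0.360 to 0.456 within MLX-WT and 0.356 to 0.471 between groups. Peak widths gave 0.469 to 0.522, 0.377 to 0.446 and 0.326 to 0.487. The regions share their chromosome position and local background in all libraries, so these values only describe the lists. Few regions were strong throughout: 80 (4.98%) stood above the 90th percentile in all 6 lists, and 145 of the broad regions (9.65%) did. At the other end 234 compact regions (14.6%) and 164 broad ones (10.9%) fell below the 10th percentile in at least 1 list. These counts depend on list length as well.

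The compact region that ranked highest throughout was chr2:156005112-156005946, 835 bp wide, at or above percentile 99.9 in every list. Its peaks were 697, 835 and 714 bp wide in MLX-DN against 584, 689 and 679 bp in MLX-WT, and its summits lay within 71 bp. It held 125, 138 and 147 ChIP reads at the summit in MLX-DN against 105, 118 and 95 in MLX-WT. The second, chr9:71332925-71333866, had its 6 summits within 51 bp and 102, 117 and 120 against 81, 86 and 60 reads. At chr11:29072944-29073606, 663 bp wide, the lowest percentile was 99.3, folds ran from 5.39 to 10.3, and reads were 103, 90 and 110 in MLX-DN against 79, 98 and 75 in MLX-WT. At this region the groups overlapped in reads. At chr2:52600886-52601719 the lowest percentile was 99.1 and the summits lay within 58 bp, with 97, 114 and 95 against 74, 87 and 61 reads. This region was isolated, with the next one 320469 bp away, and that one too was listed by all 6 libraries. The fifth, chr11:77420517-77421348, had 5 summits between 557 and 611 bp from its left edge and the sixth, of MLX-WT replicate 2, at 363 bp.

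More ChIP reads stood at the summits in MLX-DN, while the fold over background overlapped between the groups. The median compact region had 48, 54 and 53 reads at its summit in MLX-DN against 40, 45 and 37 in MLX-WT. Divided by the ChIP depth of the library these were 14.4, 13.9 and 14.6 times that depth against 11.6, 11.7 and 11.2 times, and the groups did not overlap. The difference was not tested, since a library lists a region by these same reads. Control background at the same summits was 3.19, 2.42 and 3.52 times the lowest level of the list in MLX-DN and 2.88, 2.23 and 2.39 times in MLX-WT, with overlap. The authors' fold, which divides the former by the latter, had medians of 4.25, 5.18 and 3.99 in MLX-DN against 3.76, 4.88 and 4.15 in MLX-WT. The means were 4.47 ± 0.623 and 4.26 ± 0.570 (SD, n = 3). At broad regions reads over depth were 15.3, 14.9 and 15.4 in MLX-DN against 11.6, 11.96 and 11.2 in MLX-WT, so broad summits exceeded compact ones in all 3 MLX-DN libraries and in MLX-WT replicate 2 only.

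To set ranks of the 2 groups side by side on 1 scale, each library's −log10 q was ranked among the same 3107 shared regions. Every MLX-DN rank was above every MLX-WT rank at 84 compact regions (5.23%), with a background of 8.24% over all shared regions. The reverse was found at 159 (9.91%), with a background of 8.69%. Among broad regions the shares were 11.5% and 7.39%. The difference between compact and broad was not tested.

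The clearest case of a higher rank in MLX-DN was chr8:86727597-86728419. Its percentile among shared regions was 98.9, 98.0 and 96.0 in MLX-DN against 28.2, 30.8 and 7.42 in MLX-WT. It had 142, 154 and 134 reads at the summit in MLX-DN against 38, 40 and 30, and peaks of 823, 725 and 712 bp against 259, 275 and 273 bp. Control background at its summits was 24.0, 22.0 and 27.25 reads in MLX-DN against 10.0, 8.0 and 9.84 in MLX-WT, 2.63 times higher on average, and its part in the result was not tested. Next came chr15:77717578-77718564, named above for its widths, with percentiles of 82.9, 36.4 and 80.9 against 4.72, 24.5 and 4.72, and chr5:87233246-87233945, with 72.3, 82.3 and 96.0 against 12.7, 44.9 and 28.5. At the latter the summit reads were 61, 80 and 72 against 30, 45 and 36, and control background differed little, with a ratio of 1.08.

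The clearest cases of a higher rank in MLX-WT were chr18:66161713-66162299, at 4.07, 0.338 and 46.3 in MLX-DN against 73.8, 87.2 and 87.5 in MLX-WT, and chr10:80118717-80119223, at 21.9, 12.5 and 10.3 against 58.6, 83.6 and 87.5. The third was chr7:20407528-20408490, at 8.50, 13.7 and 41.7 against 73.0, 95.6 and 72.2. At the first the summit reads were 39, 38 and 51 in MLX-DN against 49, 54 and 46 in MLX-WT, and at the second 47, 47 and 52 against 49, 63 and 46. The reads overlapped at both, while control background was 1.59 and 1.43 times higher in MLX-DN. At the third the summit reads were 31, 42 and 36 in MLX-DN against 41, 59 and 42 in MLX-WT, with a narrow overlap. Control background differed less there, with a ratio of 1.096. The median ratio of control reads, MLX-DN over MLX-WT, was 1.27 over all 159 regions ranking higher in MLX-WT. It was 1.08 over the 84 ranking higher in MLX-DN and 1.18 over all compact regions. The rank is itself computed against this control, so these ratios only describe the regions.

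The share of regions with separated ranks differed by chromosome, along with the control level there, but in the opposite direction. By region, a higher control ratio of MLX-DN over MLX-WT went with higher ranks in MLX-WT. The significance of a peak is computed against this control level, so at equal reads more control gives a lower rank. The direction by region was thus partly set in advance. By chromosome a higher control ratio went with higher ranks in MLX-DN. The ratio by region is of control reads as recovered, and that by chromosome is relative to the library mean. On the 7 autosomes whose control level at shared regions, relative to the library mean, was 1.13 to 1.26 times higher in MLX-DN, 42 of 510 compact regions (8.24%) ranked higher in MLX-DN, and a higher rank in MLX-WT was found at 24 (4.71%). On the other 12 autosomes, with ratios of 0.791 to 0.998, 42 of 1087 (3.86%) ranked higher in MLX-DN, and a higher rank in MLX-WT was found at 134 (12.3%). Chromosome 8, with the highest ratio of 1.26, had 14 of 92 compact regions ranking higher in MLX-DN (15.2%). Chromosome 15, with the lowest of 0.791, had 25 of 122 ranking higher in MLX-WT (20.5%) and 2 in MLX-DN. Over all 3107 shared regions, on all chromosomes, 8.24% ranked higher in MLX-DN and 8.69% in MLX-WT. Shares of the other shared regions by chromosome are not given, so the pattern is not shown to be particular to compact regions. Over the 19 autosomes the Spearman correlation of the control ratio was 0.65 with the share ranking higher in MLX-DN and −0.81 with the share ranking higher in MLX-WT. Each point shares its libraries and its background estimate with the others, and the split of the autosomes was made after seeing the ratios. The part of the control background in the rank differences was not tested. Widths were ordered in the same way, with MLX-DN peaks wider at 22.5% of compact regions on the 7 autosomes and at 14.4% on the other 12. The background over all shared regions, on all chromosomes, was 22.9%.

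**Figure D4:**
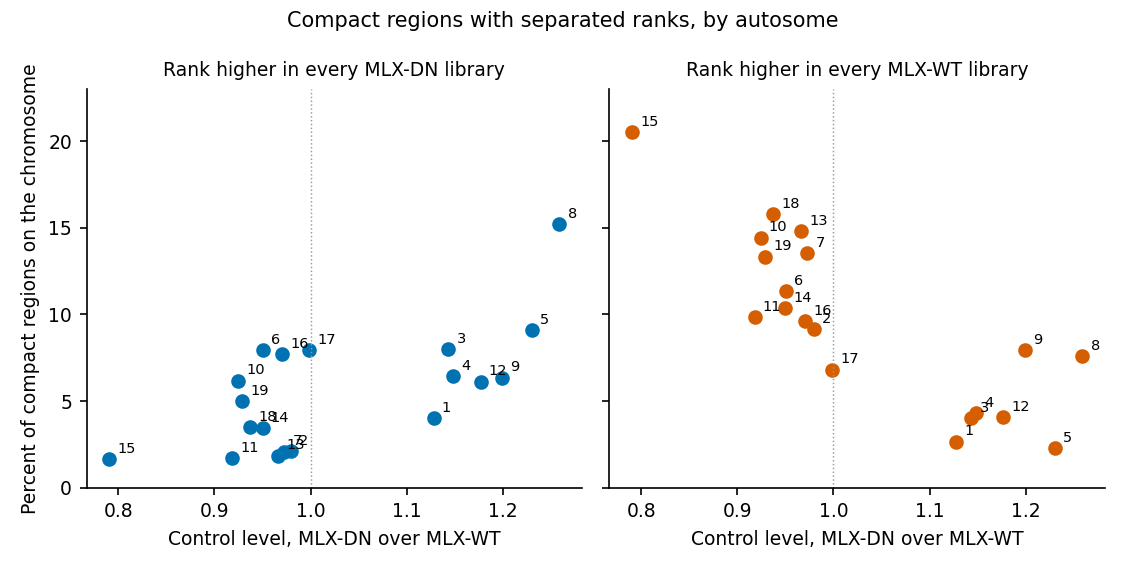
Percent of the compact regions of each of the 19 autosomes whose rank among shared regions was higher in every MLX-DN library (left) or in every MLX-WT library (right), against the ratio of control level between the groups on that chromosome; numbers name chromosomes and the dotted line marks a ratio of 1. Chromosome 8 stands highest on the left at 15.2% and chromosome 15 highest on the right at 20.5%. Broad regions are not shown.

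Compact regions lay on all 19 autosomes and on chromosome X, with 173 on chromosome 11, 142 on chromosome 2 and 122 on chromosome 15. As a share of all regions on a chromosome they were most frequent on chromosome 15 (6.56%), 11 (6.24%) and 10 (6.11%) and least frequent on chromosome X (2.26%, 8 of 354), 3 (3.34%) and 9 (3.68%). Among the shared regions of a chromosome the compact share ran from 43.5% on chromosome 3 to 58.8% on chromosome 10 among autosomes. Their median width by autosome lay between 681 bp on chromosome 5 and 768 bp on chromosome 16, and their median summit range between 116 bp on chromosome 18 and 162 bp on chromosome 13.

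Distances to the next region were counted in bins that widen with distance, so the shares of different bins do not compare density per bp. The next region of any support began within 500 bp of the edge at 767 compact regions (47.8%) and lay beyond 5 kb at most of the others. The bins from 100 to 200 bp and from 20 to 50 kb held 14.6% and 13.1% of the compact regions, and that from 1 to 2 kb held 1.93%. Among broad regions the same bins held 10.5%, 13.5% and 3.20%. Broad regions had 39.0% within 500 bp. The median distance was 597 bp for compact regions, 2770 bp for broad ones and 710 bp for regions listed by 1 to 5 libraries, of which a larger share, 12.4% against 5.61%, had the next region at 500 bp to 1 kb. A distance within 500 bp was found on 1 side at 674 compact regions and on both sides at 93. Regions with and without such a neighbour were alike in median width, at 723 and 736 bp, and in median summit range, at 134 and 132 bp.

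At these 767 regions the median summit stood 734 bp (quartiles 621 and 881 bp) from the summit of the neighbour. The neighbour was listed by MLX-DN libraries only at 263 (34.3%), by MLX-WT libraries only at 41 (5.35%) and by all 6 libraries at 135 (17.6%), and it was itself a compact shared region at 85 (11.1%). Of all 31891 regions 51.5% were listed by MLX-DN libraries only and 9.70% by MLX-WT libraries only. When regions within 500 bp were joined into one, 857 compact regions were found.

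**Figure D5:**
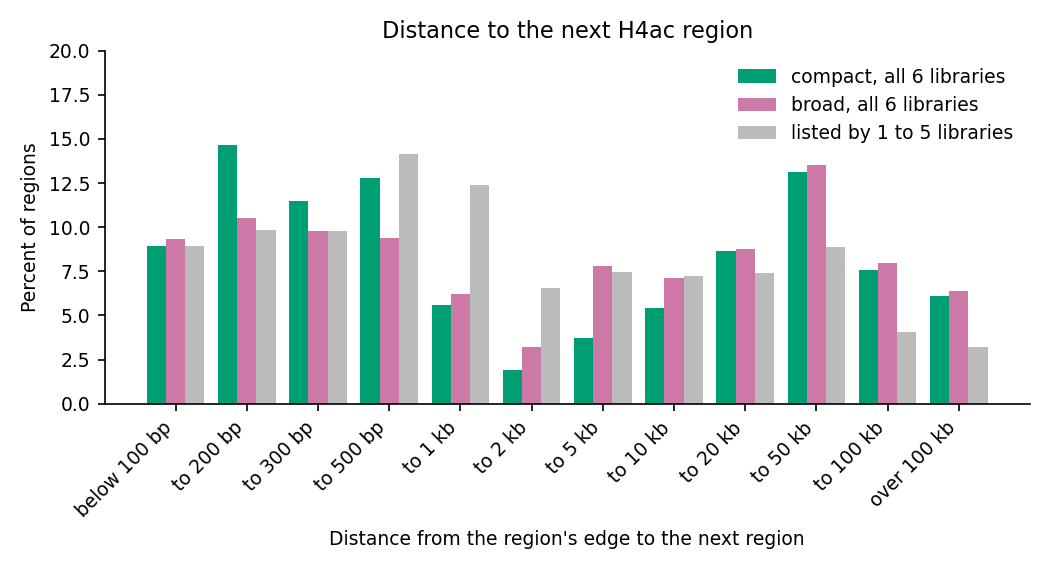
Percent of regions by the distance from the region's edge to the next region of any support, in classes of unequal size from below 100 bp to over 100 kb, for 1605 compact, 1502 broad and 28784 regions listed by 1 to 5 libraries. The classes widen with distance. Compact regions have shares of 14.6% at 100 to 200 bp, 1.93% at 1 to 2 kb and 13.1% at 20 to 50 kb.

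The share of compact regions with a second peak of the same library nearby was on average higher in MLX-DN, with groups that met at 5 kb and were apart at 20 kb. Within 5 kb of the region's edges it was found at 37.3%, 51.2% and 39.3% of the compact regions in MLX-DN and at 18.5%, 37.3% and 28.7% in MLX-WT. The lowest MLX-DN library and the highest MLX-WT library were equal at 37.3%. The means were 42.6% ± 7.55 and 28.2% ± 9.39 (SD, n = 3), a difference of 14.4 percentage points (exact permutation test, two-sided, p = 0.20, smallest possible 0.10). Within 20 kb the shares were 52.3%, 65.9% and 54.3% in MLX-DN against 29.3%, 51.7% and 42.3% in MLX-WT, with no overlap, and the difference was 16.4 points (the same exact test, p = 0.10, the smallest possible). The MLX-DN lists held more peaks than the MLX-WT lists. With every list limited to 5385 peaks by −log10 q, as many as the shortest holds, the difference was 0.727 points (exact p = 0.50), over the 642 compact regions found in those lists. With regions within 500 bp joined it was 5.60 points (exact p = 0.20). Without MLX-WT replicate 2 it was 19.8 points.

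The compact region farthest from any other was chr5:69947813-69948760, with the next region 2249032 bp away. Its peaks were 645, 881 and 718 bp wide in MLX-DN against 299, 635 and 312 bp in MLX-WT, and its summits lay within 117 bp. It was followed by chr16:27388770-27389549, 1539689 bp from the next region, chr1:97210179-97211132, also named for its scattered summits, at 1487962 bp, and chr3:16083168-16083893 at 1196243 bp. The fifth, chr6:133055185-133055809, was 929126 bp from the next region and ranked at percentile 91.0 or higher in every list, with 79, 103 and 80 reads in MLX-DN against 51, 87 and 63 in MLX-WT. Beyond 50 kb from any other region stood 220 compact regions (13.7%), and beyond 100 kb from any other shared region 807 (50.3%). Among broad regions these shares were 14.4% and 42.8%.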

How the data were processed

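H4ac ChIP-seq peaks of 3 MLX-DN and 3 MLX-WT libraries were used, grouped by sample title. The submitters' processing notes name MACS2 2.0.9, BWA 0.5.9-r26, CASAVA, SAMtools, Picard 1.65 and R 2.14.0, with mm9 as the build, and give neither role nor setting of any tool. Each list holds 1 library. Each deposited peak has a fold against its control level, which is a ratio. The authors' lists also give a −log10 p, a −log10 q and a score, the whole part of 10 times −log10 q. Position and summit complete each entry.

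Regions, widths, summits, ranks and distances were computed with Python 3.11.15, numpy 2.4.6, scipy 1.17.1 and pandas 2.3.3. Where a library had several peaks in a region, its summit and rank were those of the peak with the highest −log10 q, and its width the sum of its peaks. Whole ChIP reads and control background were recovered from fold and p, with a pseudocount of 1 and a scale factor per library, for 100.0% of peaks within 0.001 of −log10 p. At wrong factors at most 1.05% matched. The lowest control level of a list, divided by the factor, was taken as its ChIP depth. Absolute read totals are unknown. No genome or gene annotation of mm9 was used, so sequences and genes are not given. The p-values come from exact permutation tests over libraries (sign-flip under a replicate block). Correlations, separated regions and comparisons with broad regions are descriptions. Sign-flip tests of the latter had been planned and are not reported, since the width limit parts the regions compared. Leaving out libraries, list length, overlap, joining and width limits were varied. The statistics were checked on simulated lists. The members, lists and tests were chosen with earlier results of these data known. Regions were named by fixed ranks: the 5 strongest throughout, the 5 smallest and 5 largest summit ranges, the 3 narrowest, the 5 most isolated, the 3 largest differences in width and rank in each direction, and the 3 nearest the width limit on each side.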

Additional observations from a re-analysis of the deposited data

How the results depend on the processing

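The number of compact regions depends on how they are built. It was 944 at −log10 q of at least 5, 642 with lists of equal length and 787 if each library's peaks cover at least 50% of the region. With regions within 500 bp joined it was 857, and below 750 bp 880. With 1 library left out, when fewer libraries must list a region, it was 1781 to 2734. The highest number came without MLX-WT replicate 1, the shortest list. The width difference kept its sign in all 14 alternatives, between 46.3 and 139 bp, and was lowest with that cover. The replicate block is among these and leaves the difference unchanged by construction. The summit distance within minus between groups turned from 0.444 to −0.139 bp with lists of equal length, to −0.389 bp with 50% cover and to −0.556 bp with regions joined, and ranged from −1.58 to 1.67 bp with 1 library left out. Leaving out MLX-WT replicate 1 gave the smallest exact p possible, 0.10, and every other alternative 0.30 to 1.0. The summit offset between groups stayed negative, from −3.08 to −0.333 bp (exact p 0.10 to 1.0), and the neighbouring peak difference stayed positive, from 0.727 to 19.8 points (exact p 0.10 to 0.50). The rank difference to broad regions was −8.83 to −1.50 points, and −6.63 to −5.37 with 1 library left out. The offset difference to broad regions was −30.5 to −15.8 bp, smallest in size with 1 peak in every library, and −30.5 to −25.4 bp with 1 library left out, and it turned to 1.24 in percent of the union width. Both are descriptions, since the rule's width limit parts the regions compared. Under a replicate block the offset difference between groups was again −2 bp (exact sign-flip test over 3 pairs, p = 0.50) and the neighbouring peak difference 14.4 points (p = 0.25, the smallest 3 pairs allow), and the width difference 96 bp. Deviations of width from the group means correlated at 0.00902, 0.0427 and −0.0170 between same-numbered libraries over the 1605 regions. Such a correlation does not see a shift of a whole library, so it cannot decide whether equal numbers mark pairs or batches. List length and the share with a neighbouring peak within 5 kb fell from replicate 2 over 3 to 1 within each group. Replicate 2 also had the largest median width and fold of its group, while the order of replicates 1 and 3 in these differed between groups. A batch by replicate number was not tested, and the main tests took the libraries as unpaired. Depth limits detection: no compact region rested on fewer than 13 reads at a summit.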
